A study of Mus musculus with 3 samples.

Results

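The receptors of the epidermal growth factor (EGF) family and their ligands were examined in NIH3T3 cells that overexpressed YAP, the transcriptional coactivator that the Hippo pathway restrains. A list of 10 genes was drawn up by name, with the 7 ligands Hbegf, Ereg, Areg, Tgfa, Btc, Epgn and Egf and the 3 receptors Egfr, Erbb2 and Erbb3, and every probe set was used whose platform annotation gives the symbol of that gene and no other. This rule found 20 of the 45037 probe sets and 9 of the 18193 named genes on the array. No probe set carries the symbol Areg in this annotation, alone or with other symbols, and this gene, which encodes amphiregulin, was not analysed here.

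RNA was measured once in each of 3 kinds of NIH3T3 cells, a line of fibroblasts grown from NIH/Swiss mouse embryos, here kept in D-MEM with 10% calf serum. The control cells are labelled untransduced. The cells called YAP carried wild-type mouse Yap, and those called mtYAP carried Yap S112A, in which the serine at position 112, a target of the LATS kinases, is replaced by alanine. Per the study's methods, both genes were delivered by a retroviral vector with a Flag tag and a puromycin resistance gene, and the cells that survived puromycin were grown on as a population. The methods also describe cells that received the vector without a gene, whereas the control of this array set is labelled untransduced. If that label holds, infection and selection differ between control and the other arrays along with Yap and cannot be told apart from it. A free-text field of the control also mentions an experiment with embryonic stem cells, although all its other labels name NIH3T3. The study presents the arrays as a test of growth at confluence, but neither the labels nor the array methods give the density at which RNA was taken.

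There was 1 array per condition, so no value has an error, no test could be run, and every difference is between single arrays. Levels are on the log2 scale, on which a difference of 1 is 2-fold. Probe sets at 6 or above, 33.0% to 34.0% of those on each array, are called clearly measured. Levels of different probe sets cannot be compared with each other, since probe sets differ in brightness. All 8 fibroblast markers examined were at 6 or above on every array, and none of 8 epithelial markers was, with a highest level of 4.73 in control, 4.45 in mtYAP and 4.68 in YAP. Of the fibroblast markers, Thy1, S100a4, Pdgfra and Pdgfrb nevertheless lay below −1 against control in mtYAP, and Pdgfrb alone in YAP, and their part in the results was not tested. Yap1 itself read 0.68 lower than control in mtYAP on the log2 scale and 0.51 lower in YAP. Whether its probe sets read the introduced coding sequence is not stated, so this reading checks no label.

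The EGF receptor and its relatives ERBB2, ERBB3 and ERBB4 are tyrosine kinases of the cell surface that pair up when a ligand binds and signal through the RAS to ERK and the PI3-kinase routes to growth and division. The ligands are made as membrane-bound precursors, and proteases of the ADAM family cut them free to act on the same cell or on its neighbours. ERBB2 binds no known ligand and acts as a partner, whereas ERBB3 binds neuregulins and has little kinase activity of its own. In epithelial cells, amphiregulin is known as a gene that active YAP induces.

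Among the ligands, Hbegf and Ereg stood well above control in mtYAP and less far above it in YAP, and the other measured ligands stood near control levels. In RNA from a whole culture, more cells that express a gene and more RNA of it per cell cannot be told apart. Hbegf, which encodes the heparin-binding EGF-like growth factor, a ligand of EGFR and ERBB4, had a mean level of 4.87 in control, 8.11 in mtYAP and 5.99 in YAP as read by its 2 probe sets. The control array was the lowest and the mtYAP array the highest in both probe sets. The log2 difference from control was 3.24 (9.45-fold) in mtYAP, and it was 1.12 (2.17-fold) in YAP. Of all 18193 genes, 0.126% had a larger difference in mtYAP and 0.973% in YAP.

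The probe sets of Hbegf differed in how far they stood from control. The first of them, in the order of their IDs, read 5.03 in control, 8.00 in mtYAP and 5.87 in YAP, which gave differences of 2.97 and 0.84. The second read 4.70, 8.21 and 6.10 in the same order, which gave differences of 3.51 and 1.40. In YAP, 1 of these probe sets thus passed a difference of 1 and the other did not. Both lay below 6 in control, so the size of each difference from control is uncertain, while in mtYAP both were clearly measured.

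Ereg encodes epiregulin, a ligand of EGFR and ERBB4. Its single probe set read 5.18 in control, 7.22 in mtYAP and 5.98 in YAP. The order of the arrays was that of Hbegf, with the mtYAP array alone clearly measured. The log2 difference from control was 2.04 (4.11-fold) in mtYAP and 0.80 (1.74-fold) in YAP. A larger difference was held by 0.522% of all genes in mtYAP and by 2.33% in YAP. As with Hbegf, the control level lay below 6, and there was no other probe set of Ereg with which to compare it.

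**Figure D1:**
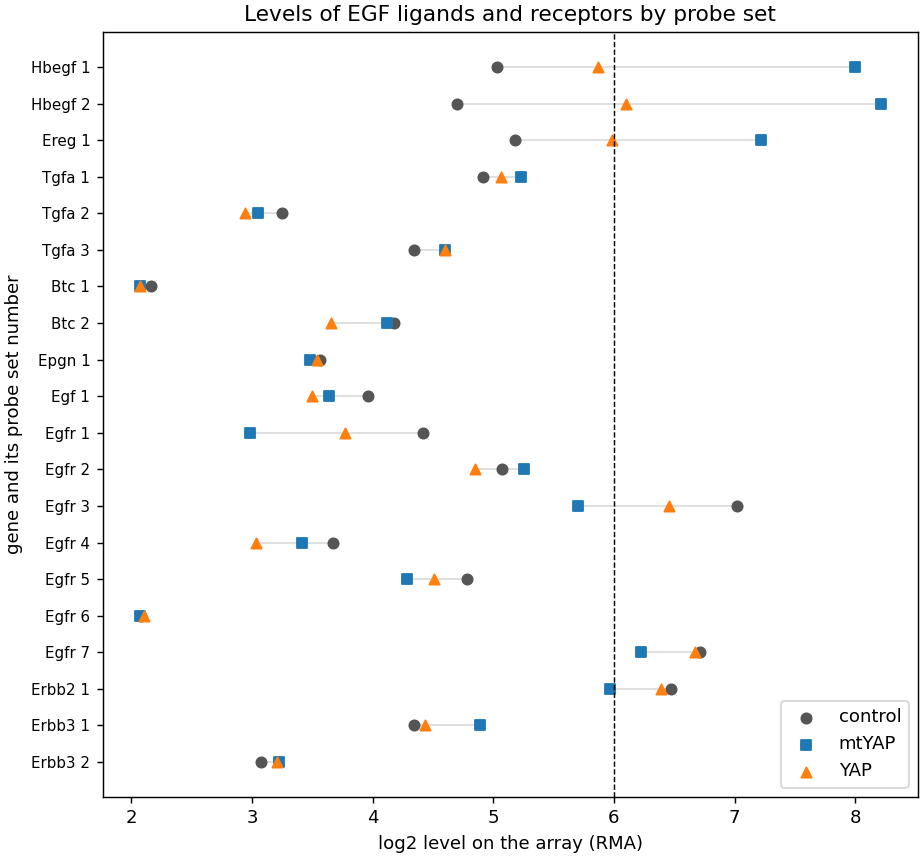
Log2 level (horizontal axis) of each of the 20 probe sets of the measured ligands and receptors (vertical axis, numbered within a gene by probe set ID) in control (grey circles), mtYAP (blue squares) and YAP (orange triangles), with a dashed line at a level of 6 and a grey line joining the lowest and the highest array. Both Hbegf probe sets and the Ereg probe set run from control through YAP to mtYAP, where they reach 7.22 to 8.21.

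The other 4 measured ligands lay below 6 on every array. Tgfa, which encodes transforming growth factor alpha, averaged 4.17 in control, 4.29 in mtYAP and 4.20 in YAP as the mean of 3 probe sets, of which 2 were higher and 1 was lower than control in both lines. Btc, which encodes betacellulin, averaged 3.17, 3.10 and 2.86, and its difference in YAP came from 1 of its 2 probe sets, at −0.53 against −0.09. Such values near the background do not order the arrays. Epgn, which encodes epigen, read 3.56, 3.48 and 3.54, and Egf, which encodes EGF itself, read 3.96, 3.64 and 3.50. Their differences from control ran from −0.46, for Egf in YAP, to −0.02, for Epgn in YAP.

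Some of the ligand genes are neighbours on mouse chromosome 5, where the order of the protein-coding genes in the RefSeq annotation of GRCm38.p6 is Epgn, Ereg, Areg and Btc. The differences of Epgn, Ereg and Btc in mtYAP were −0.08, 2.04 and −0.08, so that the ligand genes measured on either side of Ereg did not share its distance from control. Next to this group, Mthfd2l, which encodes a mitochondrial folate enzyme, differed from control by 0.21 in mtYAP and by 0.16 in YAP, and Cxcl2, which encodes a chemokine, by −0.13 and −0.46. On the side of Btc, Parm1 was below 6 on every array and differed by 1.10 and 0.41, and Rchy1, which encodes a ubiquitin ligase, by −0.14 and −0.41. Epgn, Btc and Cxcl2 also lay below 6 on every array, whereas Mthfd2l and Rchy1 lay above it.

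The receptors stood closer to control than Hbegf and Ereg did, and by the mean of the probe sets none of the 3 passed a difference of 1 in either direction. Egfr averaged 4.82 in control, 4.27 in mtYAP and 4.48 in YAP as the mean of 7 probe sets, and its difference was −0.55 in mtYAP against −0.34 in YAP. In each line, 6 of the 7 probe sets were lower than in control and 1 was higher. The mean hides a wide range, from −1.44 to 0.18 in mtYAP and from −0.65 to 0.02 in YAP.

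Only 2 of the Egfr probe sets were clearly measured. The third of the 7, in the order of their IDs, read 7.02 in control, 5.70 in mtYAP and 6.46 in YAP, a difference of −1.32 (2.50-fold lower) in mtYAP and −0.56 in YAP. The seventh read 6.71, 6.22 and 6.67, a difference of −0.49 in mtYAP and −0.04 in YAP. Both had control as the highest and mtYAP as the lowest array, but they disagreed on the size. Over these probe sets alone, a choice made after the values were seen, the mean difference of Egfr was −0.91 in mtYAP and −0.30 in YAP. The first probe set stood at −1.44 in mtYAP and lay below 6 on every array. Which transcripts of Egfr each probe set reads is not stated in the labels or methods.

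**Figure D2:**
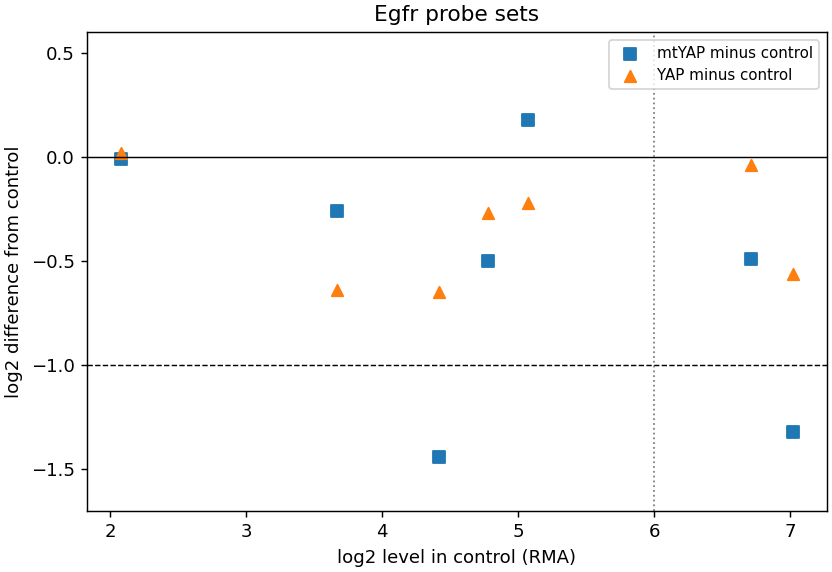
Log2 difference from control (vertical axis) of each of the 7 Egfr probe sets against its log2 level in control (horizontal axis), in mtYAP (blue squares) and YAP (orange triangles). The solid line marks no difference, the dashed line −1 and the dotted line a level of 6, and in mtYAP 2 probe sets lie below −1, at control levels of 4.42 and 7.02.

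Erbb2 was read by 1 probe set at 6.47 in control, 5.97 in mtYAP and 6.39 in YAP. The mtYAP array was the lowest, and the YAP array lay next to control. The difference was −0.50 (1.41-fold lower) in mtYAP and −0.08 in YAP. Erbb3 averaged 3.71, 4.06 and 3.82 over 2 probe sets, all of them below 6, with a difference of 0.35 in mtYAP and 0.12 in YAP.

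Promoter windows from RefSeq for GRCm38.p6, which run from 250 bases before to 50 bases after the transcript start, were found for 7 of the 10 genes, among them Areg but not Hbegf, Ereg or Erbb3. The 8 windows, 2 of them for Egf, were searched on both strands for GGAATG, the core letters bound by TEAD factors, for TGANTCA, the letters bound by AP-1, and for CACGTG, an E-box bound by MYC. GGAATG was found in the window of Erbb2 alone, 88 to 83 bases before the start, and 14.7% of all 32851 windows hold it. Neither TGANTCA (7.81% of all windows) nor CACGTG (7.15%) was found in the windows of these genes. The part before the start is shown for Erbb2 and for Egfr, the receptors with clearly measured probe sets that read lower in mtYAP, with GGAATG in capitals.
Erbb2, chr11:98412234-98412483, plus strand: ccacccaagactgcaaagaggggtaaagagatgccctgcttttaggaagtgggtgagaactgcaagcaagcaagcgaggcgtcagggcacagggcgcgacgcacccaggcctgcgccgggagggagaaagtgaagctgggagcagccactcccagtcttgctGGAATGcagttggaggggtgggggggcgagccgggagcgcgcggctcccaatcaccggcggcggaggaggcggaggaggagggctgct
Egfr, chr11:16751953-16752202, plus strand: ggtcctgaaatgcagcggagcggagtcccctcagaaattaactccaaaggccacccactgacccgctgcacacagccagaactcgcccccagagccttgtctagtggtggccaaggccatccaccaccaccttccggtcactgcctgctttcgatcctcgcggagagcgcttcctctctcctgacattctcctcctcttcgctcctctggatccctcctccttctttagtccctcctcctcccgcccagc

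The counts of genes past a difference of 1 were read against all genes. In mtYAP, 2 of the 9 measured genes, Hbegf and Ereg, lay above 1, where 3.77% of all genes did, and none lay below −1, where 4.06% did. In YAP, Hbegf alone lay above 1, where 1.36% of all genes did, and none lay below −1, where 1.26% did. The median difference over the 9 genes was −0.08 in mtYAP and −0.02 in YAP, beside 0.02 and −0.003 over all genes.

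Genes under 6 on every array seldom pass such a limit. They passed 1 in mtYAP in 1.27% of cases, and genes that reached 6 did so in 7.66%. By the mean of its probe sets, 3 of the 9 genes reached 6 on an array, namely Hbegf, Ereg and Erbb2, and Hbegf and Ereg did so through mtYAP, where they were highest. The counts of genes past a limit are therefore not separate from this measure.

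The direct difference between mtYAP and YAP does not use the control array. Hbegf was 2.12 higher in mtYAP than in YAP on the log2 scale (4.35-fold), with 2.11 and 2.13 in its probe sets, which is closer agreement between them than in either difference from control. Only 0.0495% of all genes, which is 9 genes, had a larger difference in this direction. Ereg was 1.24 higher (2.36-fold), with 0.335% of genes above it. These were the 2 genes of the 9 above 1, where 0.748% of all genes were, and none lay below −1, where 1.42% of all genes were. Erbb2 differed by −0.42 and Egfr by −0.21, and the remaining genes by −0.06 to 0.24.

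**Figure D3:**
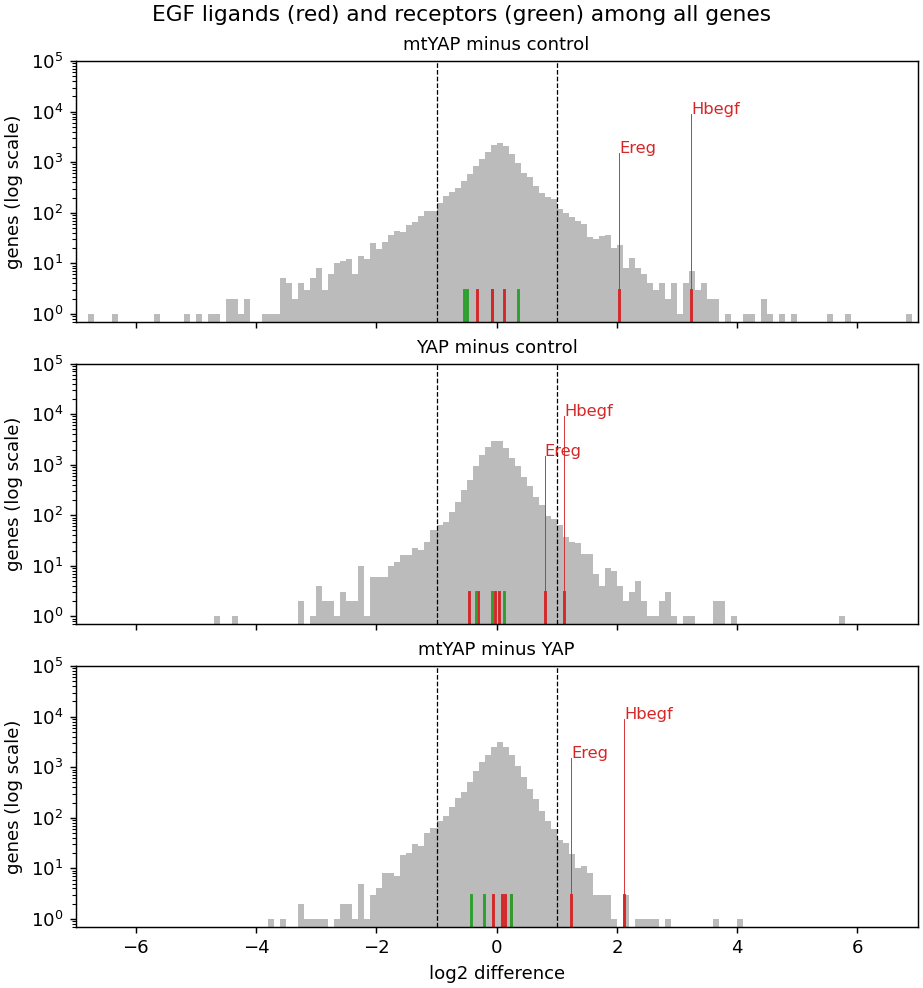
Number of genes (vertical axis, log scale) at each log2 difference (horizontal axis, in steps of 0.1) for mtYAP minus control (top), YAP minus control (middle) and mtYAP minus YAP (bottom), with all 18193 genes in grey. Short bars mark the 6 measured ligands in red and the 3 receptors in green, dashed lines mark −1 and 1, and Hbegf and Ereg lie to the right at 3.24 and 2.04, 1.12 and 0.80, and 2.12 and 1.24.

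Next, genes whose pair of differences from control was most like that of Hbegf were sought among all genes that reached 6 on an array. By the distance between the pairs, the nearest were Rnd1, which encodes a small GTPase, at 3.23 in mtYAP and 1.36 in YAP (distance 0.24), Dppa2, known from pluripotent cells, at 3.35 and 1.45 (distance 0.34), and Plagl1, which encodes a zinc finger transcription factor, at 2.93 and 0.78 (distance 0.46). Of these, Plagl1 alone was at 6 or above in control, at 6.33. The likeness rests on 3 arrays.

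Lists of other genes around the EGF receptors were then examined. They hold 62 genes, of which 57 were measured and 5 were not analysed here. In mtYAP, 3 of the 57 lay above 1 and 3 below −1, and in YAP, 2 lay above 1 and 1 below −1. In mtYAP these are shares of 5.26% in each direction, beside 3.77% and 4.06% of all genes. In YAP they are 3.51% above and 1.75% below, beside 1.36% and 1.26% of all genes. Of the 57, 37 reached 6 on an array, and genes that reach 6 pass these limits more often. Among the 37, 3 lay above 1 and 3 below −1 in mtYAP, beside 7.66% and 8.22% of all genes that reached 6. In YAP, 2 of the 37 lay above 1 and 1 below −1, beside 2.72% and 2.30%. The medians over the 57 were 0.02 in mtYAP and −0.03 in YAP. These shares rest on 1 to 3 genes each, and the values that follow describe single genes.

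The remaining ligands and receptor of the family, the neuregulins Nrg1 to Nrg4 and Erbb4, had medians of 0.03 in mtYAP and 0.01 in YAP. Nrg1, whose product binds ERBB3 and ERBB4, was the gene among these 5 above 1, at 5.21 in control, 7.24 in mtYAP and 6.75 in YAP. Both YAP lines were clearly measured, and control was not. The differences were 2.03 (4.08-fold) and 1.54 (2.91-fold), from 1 probe set. The other 4 genes lay below 6 on every array, including Erbb4, at 2.16, 1.81 and 2.09.

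Of 11 genes for shedding and transport of ligands, 1 lay above 1 in mtYAP and none below −1, and in YAP none passed either limit. Timp3, which encodes a secreted inhibitor of metalloproteinases, ADAM17 among them, averaged 8.56 in control, 10.52 in mtYAP and 9.12 in YAP. The order of the arrays was that of Hbegf and Ereg, and the 4 probe sets of Timp3 were clearly measured on every array. Its difference was 1.96 (3.89-fold) in mtYAP, with 1.84 to 2.05 in single probe sets, and 0.56 in YAP. Adam17, which encodes the main sheddase of several EGF ligands, read 7.37, 6.90 and 7.24, and Adam10, which encodes that of EGF and betacellulin, read 6.96, 6.78 and 7.02. These were named because of what they do. The difference of Adam17 in mtYAP was −0.47, with all 3 probe sets lower, and that of Adam10 was −0.19.

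Of 14 adaptors and effectors that bind the active receptors, none lay above 1 and 1 lay below −1 in mtYAP, and none passed either limit in YAP. Pik3r1, which encodes the p85 alpha regulatory subunit of PI3-kinase, averaged 8.50 in control, 6.70 in mtYAP and 7.85 in YAP. All its 4 probe sets were lower than control in both lines, by 1.22 to 2.13 on the log2 scale in mtYAP and by 0.44 to 0.75 in YAP. The mean difference was −1.80 in mtYAP and −0.65 in YAP. Grb2, the adaptor that links the receptors to RAS activation, stood at −0.06 and 0.03.

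Of 10 inhibitors of the receptors, none lay above 1 and 1 lay below −1 in mtYAP, and none passed either limit in YAP. Their median difference was −0.31 in mtYAP, and −0.18 in YAP, beside 0.02 and −0.003 over all genes. Cblb, which encodes a ubiquitin ligase that marks receptors for removal, averaged 7.02 in control, 5.76 in mtYAP and 6.47 in YAP. Its 3 probe sets stood at −0.98, −0.98 and −1.80 in mtYAP, so the mean of −1.25 passed the limit through 1 of them. The difference in YAP was −0.54. Errfi1, which encodes the receptor inhibitor MIG6, read 9.38, 8.80 and 9.30.

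Downstream, 6 of 11 listed genes of the RAS to ERK cascade were measured and none passed a difference of 1 in either line. Map2k1, which encodes the kinase MEK1 that activates ERK, was the furthest above control, at 9.07 in control, 9.90 in mtYAP and 9.77 in YAP, a difference of 0.83 and 0.70. Of 11 genes that respond to growth factors, 1 lay above 1 and 1 below −1 in each line. Dusp4, which encodes a phosphatase that acts on ERK, read 6.01, 7.90 and 7.22, a difference of 1.89 and 1.21. Fos, which encodes a subunit of AP-1, read 8.09, 6.91 and 7.00, a difference of −1.18 and −1.09. The list thus had no common direction, and its median difference was 0.31 in mtYAP but −0.21 in YAP.

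Between mtYAP and YAP directly, 4 of the 57 listed genes lay above 1 (7.02%, beside 0.748% of all genes) and 1 lay below −1 (1.75%, beside 1.42% of all genes). Those above were Timp3 at 1.40, Etv5, an ETS transcription factor, at 1.34, Dusp6, another phosphatase of ERK, at 1.04 and Adam12, a metalloproteinase, at 1.03, and the gene below was Pik3r1 at −1.15. Against control, Etv5 stood at 0.71 in mtYAP and −0.63 in YAP, Dusp6 at 0.41 and −0.63, and Adam12 at 0.955 and −0.07. By the mean of their probe sets, none of Etv5, Dusp6 and Adam12 thus passed 1 or −1 against control. Etv5, Dusp6 and Adam12 were named after their values were seen. Etv5 and Adam12 lay below 6 on every array by the mean of their probe sets. Single probe sets were brighter, and the second of Adam12 read 6.05 in control, 7.03 in mtYAP and 6.02 in YAP. The second of Etv5 read 5.78, 6.80 and 5.08. It stood at 1.02 against control in mtYAP, and the others of Etv5 stood at 0.77 and 0.33. Of the 37 listed genes that reached 6 by the mean, 2 lay above 1 between the lines and 1 below −1. Among all genes that reached 6, the shares were 1.33% and 3.06%.

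**Figure D4:**
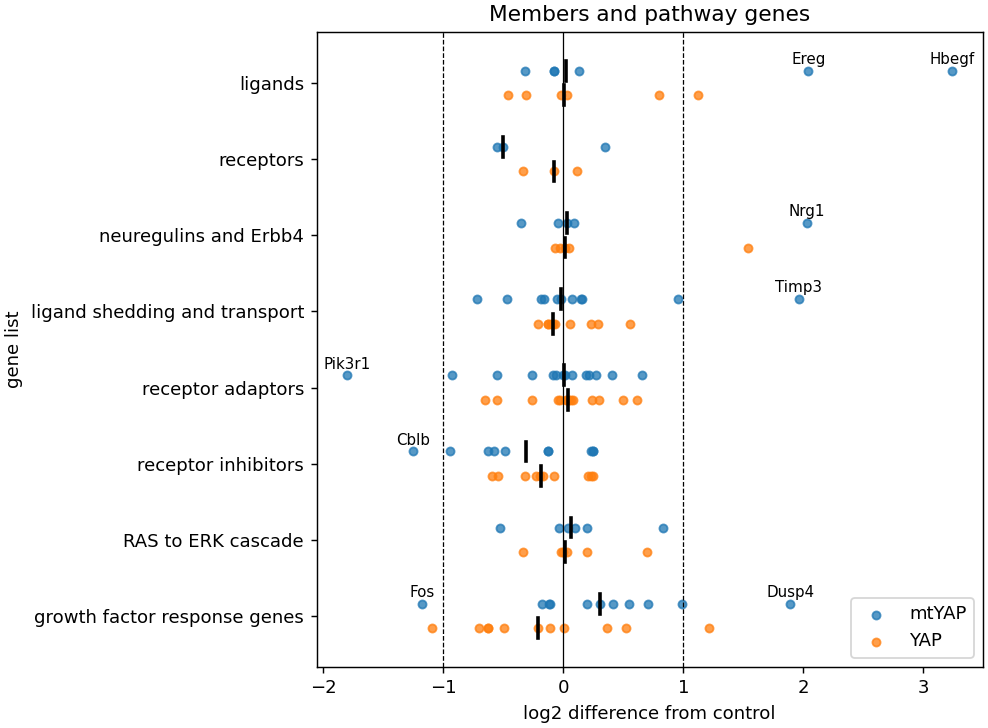
Ligands, receptors and 6 pathway lists (vertical axis), with a point for the log2 difference of each measured gene from control (horizontal axis) in mtYAP (blue) and YAP (orange). Black bars are medians and dashed lines mark −1 and 1. Most genes lie between the dashed lines, and the labelled genes are the 8 that lie outside them in mtYAP.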

How the data were processed

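Biotin-labelled cRNA from total RNA was applied to Affymetrix GeneChip arrays of the mouse genome, 1 for each of 3 conditions. Per its methods, the study used robust multiarray analysis in R, which corrects background, normalizes between arrays and sums probes up, and the authors deposited log2 levels per probe set, rounded to 2 decimals. RMA and affy are the tools in the submitters' processing notes, which give no versions and do not state whether further arrays went into the normalization. The number of arrays limits the precision.

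Names came from the platform annotation, and only probe sets with 1 symbol were used (34945, beside 932 with several and 9160 with none). Of 18193 genes, 18032 had an identifier among the RefSeq genes of GRCm38.p6, and no symbol differed. The levels of the probe sets of a gene were averaged, and genes past a log2 difference of 1 or −1 were counted. No test was run, since each group is 1 array. The genes examined, the lists, the limits and the alternatives were chosen with earlier results of these data known, except for 1 alternative chosen after seeing the values. The lists were written from general knowledge. Named genes are all measured members and the genes next to the ligand genes. They also include, of each list, up to 4 genes past the limit with a level of 6 on an array, and the 3 genes most like Hbegf. The others were named for what they do or after their values were seen, namely Adam17, Adam10, Grb2, Errfi1, Map2k1, Erbb4, Etv5, Dusp6 and Adam12. Averaging and counting were tested on simulated data that held planted differences. The results were recomputed with the brightest probe set of a gene, with any probe set passing, without the _s, _x and _a types, with several-gene probe sets, with genes at a level of 6, with the median difference or a loess (span 0.3) removed, with limits of 0.65 and 1.5 and, added later, with only probe sets reaching 6. Python 3.11.15 with numpy 2.4.6, pandas 2.3.3, statsmodels 0.14.6 and matplotlib 3.10.9 was used.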

Additional observations from a re-analysis of the deposited data

How the results depend on the processing

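The differences of Hbegf and Ereg in mtYAP ranged from 3.24 to 3.51 and from 2.04 to 2.07 under the alternatives, and that of Hbegf in YAP from 1.12 to 1.40. With the limit kept at 1, no member changed its side of it by its own difference. For Hbegf in YAP the alternatives could not show such a change, since none used its first probe set alone, at 0.84. In mtYAP that probe set stood at 2.97, outside the range given for Hbegf, for the same reason. Ereg has 1 probe set, so no choice of probe set could move its difference. Egfr in mtYAP ranged from −0.91 to −0.49. Differences near 0 changed sign for Tgfa in YAP (−0.03 to 0.15) and Epgn in YAP (−0.02 to 0.0003). Egf has a probe set of the _a type alone and no value without that type. With any probe set passing, 1 member (Egfr, where 6.3% of all genes passed) in place of 0 lay below −1 in mtYAP. By the same rule, 2 listed pathway genes in place of 1 lay below −1 in YAP, where 2.06% of all genes did. The pathway counts were the same in mtYAP against YAP, where 2.44% of all genes lay below −1. With a limit of 0.65, 2 members in place of 1 were above it in YAP (3.74% of all genes were), and the pathway counts became 8 above and 6 below in mtYAP (8.07% and 8.34% of all genes), 2 below in YAP (3.11%) and 2 below in mtYAP against YAP (4.07%). With a limit of 1.5, the members above were 0 in YAP (0.423% of all genes) and 1 in mtYAP against YAP (0.154%), and the pathway counts became 1 below in mtYAP (1.72% of all genes), 1 above and 0 below in YAP (0.423% and 0.484%), and 0 above and 0 below in mtYAP against YAP (0.154% and 0.374%). Among genes with a level of 6, 2 pathway genes in place of 4 lay above 1 in mtYAP against YAP, since fewer genes were left. Of all genes that reached 6, 1.33% did. The other 104 of 120 comparisons of counts stayed within 1.5 times the reported count. No paired analysis was possible because each group is 1 array, and for the same reason no array could be left out. Low levels limit the values of Tgfa, Btc, Epgn, Egf and Erbb3 on every array and of Hbegf and Ereg in control. In YAP, the mean of Hbegf, at 5.99, and the level of Ereg, at 5.98, also lay just under 6.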
